A study of Rattus norvegicus with 30 samples.

Results

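The genes described here handle iron and heme in the rat kidney. They are Tfrc and Slc11a2, which take iron up, Slc40a1, which exports it, the ferroxidases Heph and Cp, the ferritin chains Fth1 and Ftl1, the heme-degrading enzyme Hmox1 and the iron sensor Ireb2. The rule names the 9 genes and uses no measured value, although they were proposed with earlier results of these data known. Of these, 8 were found by symbol among 32545 genes, and 7 of the 8 had a count in any library. The mRNAseq libraries came from the right kidney of male Sprague-Dawley rats and fell into 6 groups of 5. LS rats ate 0.4% NaCl, HS14 rats 4.0% NaCl for 14 d and HS21 rats 4.0% NaCl for 21 d, and cortex (Cx) and outer medulla (OM) were dissected. Both tissues of a group came from the same 5 kidneys. The sources used here state no age at collection for the sequenced kidneys. They give an age at probe surgery and ages of other rats of the study. They differ on whether the sequenced kidneys came from rats with flow probes and catheters or from a separate group.

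Cells import transferrin-bound iron through the transferrin receptor Tfrc, and Slc11a2 (DMT1) moves ferrous iron across membranes, including those of the proximal tubule, where filtered iron is recovered. Iron not needed at once is stored in ferritin shells of heavy (Fth1) and light (Ftl1) chains. It leaves through ferroportin (Slc40a1) as ferrous iron, which hephaestin (Heph) or ceruloplasmin (Cp) then oxidises. Heme oxygenase 1 (Hmox1) breaks heme down to iron, biliverdin and carbon monoxide, and is known as a gene of the oxidative stress response and of macrophages that clear heme. Iron regulatory protein 2 (Ireb2) binds hairpins in ferritin and transferrin receptor mRNA, so that ferritin protein can move without its mRNA.

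On Rnor_6.0, the build of the deposited table, Tfrc (ENSRNOG00000001766) lies at chr11:71397383-71419223 and Slc11a2 (ENSRNOG00000019550) at chr7:142025815-142063212, both on the minus strand. Cp (ENSRNOG00000011913) lies at chr2:104744461-104799853 and Heph (ENSRNOG00000012294) at chrX:65563122-65658516, both on the plus strand. Ftl1 (ENSRNOG00000020843) lies at chr1:101448346-101449829 on the minus strand, Hmox1 (ENSRNOG00000014117) at chr19:14508616-14515456 and Ireb2 (ENSRNOG00000013271) at chr8:59420123-59501118, both on the plus strand. Counts are per gene and do not separate its transcripts.

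Promoter windows of 250 bases before to 50 bases after a start site were taken from RefSeq (build GRCr8) for the members that had one, which were Tfrc, Slc11a2 (2 windows), Slc40a1, Cp, Heph and Ireb2. They were searched on both strands for ACGTG, the core letters recognised by hypoxia-inducible factors, and for TGACNNNGC, the core of the antioxidant response element. ACGTG stood in 19.3% of all 33469 windows and TGACNNNGC in 12.1%. Among the members one match was found, an ACGTG in the Tfrc window that begins 31 bases before the start site. It is printed because it is the single match and Tfrc is described below at HS14, 5′ to 3′ on the strand of the gene (minus), at chr11:81690332-81690361, with the matched letters in capitals.
Tfrc: ctcggtaggtgtACGTGcggcaggaagtga
A match is a description of the letters and not of a factor's binding, and the absence of a match says only that these letters were not in the window.

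Counts on genes summed to between 5408126 and 21842843 per library, and the lowest total was that of OM HS14 replicate 10. By the paper's mapping summary, that library also had the lowest share of mapped reads and the lowest share of exonic bases. None of the 60 pairs of libraries within groups agreed within counting noise, which the closest pair exceeded 6.92 times. The summed level of 8 proximal tubule markers was 8480 to 14900 CPM (counts scaled to a common library size) in the Cx libraries and 220.1 to 7187 CPM in those of the OM, and that of 6 thick ascending limb markers was 1724 to 3471 CPM in the Cx and 10400 to 22720 CPM in the OM. No marker of either list was at 0 in a whole group. OM LS replicate 2 stood apart with a proximal tubule sum of 7187 CPM, while no other OM library passed 2469 CPM. In tissue pieces, fewer cells of a type and less RNA per cell cannot be told apart.

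Levels are given in CPM after TMM scaling over the 30 libraries. Per kilobase of gene length, Ftl1 was by far the most abundant of the 7 members with counts in Cx LS, at 2580 ± 80.5 CPM per kb (mean ± SD, n = 5). Slc11a2 followed at 55.9 ± 3.74 CPM per kb. Ireb2 (16.7 ± 0.89), Tfrc (14.6 ± 1.25) and Cp (13.9 ± 2.16) came next, and each overlapped its neighbour in this order. Heph and Hmox1, at 4.02 ± 0.686 and 3.69 ± 0.699 CPM per kb, also overlapped and were the lowest. In OM LS the order began again with Ftl1 (1340 ± 671) and Slc11a2 (34.6 ± 13.2) and ended with Hmox1 (1.89 ± 0.379), and from Slc11a2 to Ireb2 every neighbouring pair overlapped.

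**Figure D1:**
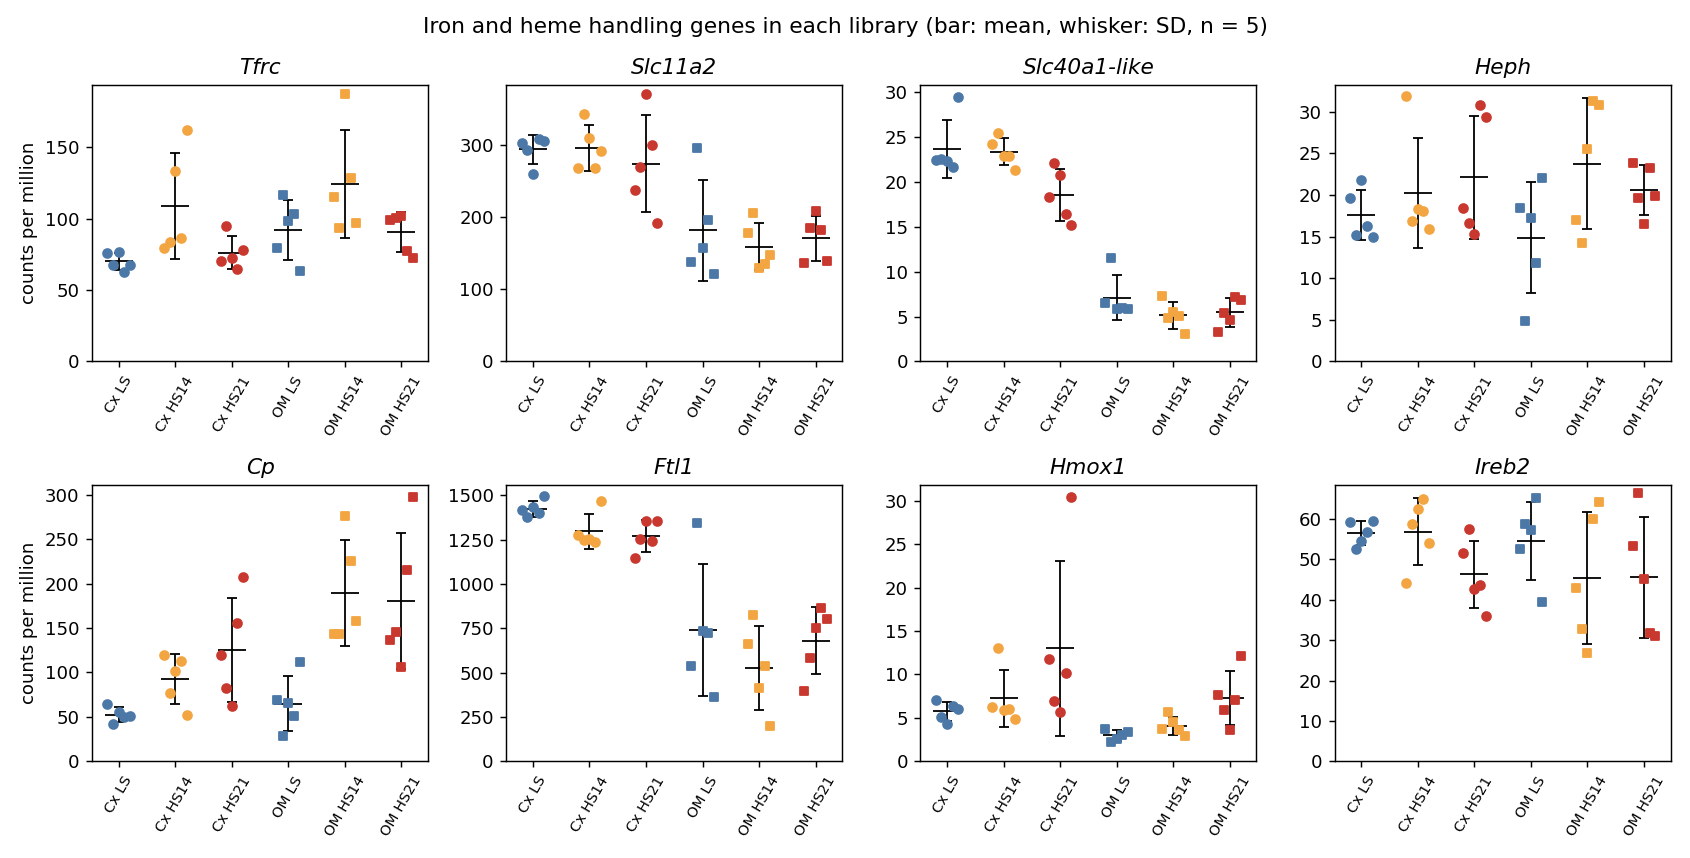
Level of 7 members and of the Slc40a1-like gene LOC100911874 in each of the 30 libraries, in CPM on linear axes that start at 0, by tissue and diet. Points are single libraries, bars the mean of 5 and whiskers the SD. Cp reached 206.8 CPM in Cx HS21 and 297.8 CPM in OM HS21, against at most 64.6 CPM in Cx LS and 111.7 CPM in OM LS.

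A gene was called when its adjusted p was under 0.05 (edgeR's quasi-likelihood test with Benjamini-Hochberg adjustment over all genes tested). In the Cx at HS21, Cp and Hmox1 rose, Ftl1 and Ireb2 fell, and Tfrc, Slc11a2 and Heph did not pass the test. That makes 2 of 7 tested members raised, where 18.9% of all 14299 genes tested were raised, and 2 of 7 lowered, where 20.5% were lowered. At HS14 none of the 7 was called in the Cx (raised 1.14% and lowered 1.18% of all genes), although 3 had an unadjusted p under 0.05. DESeq2 called Cp and Tfrc raised there, and limma on FPKM called none. In the OM no member was called at either time. At HS14, 0.00694% of all genes were raised and 0% lowered, and at HS21 0.639% were raised and 0.131% lowered. In this tissue 1 member at HS14 and 2 members at HS21 had an unadjusted p under 0.05, and no member separated the groups fully at HS21 (3.52% of all genes did). DESeq2 called Cp there at both times and Hmox1 at HS21, and limma called none. The comparison of HS21 with HS14 in the Cx called no member by edgeR (raised 6.5%, lowered 9.69% of all genes) and no member without overlap (9.28% of all genes), with 2 at an unadjusted p under 0.05, 1 lowered by DESeq2 (Tfrc) and none by limma.

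**Figure D2:**
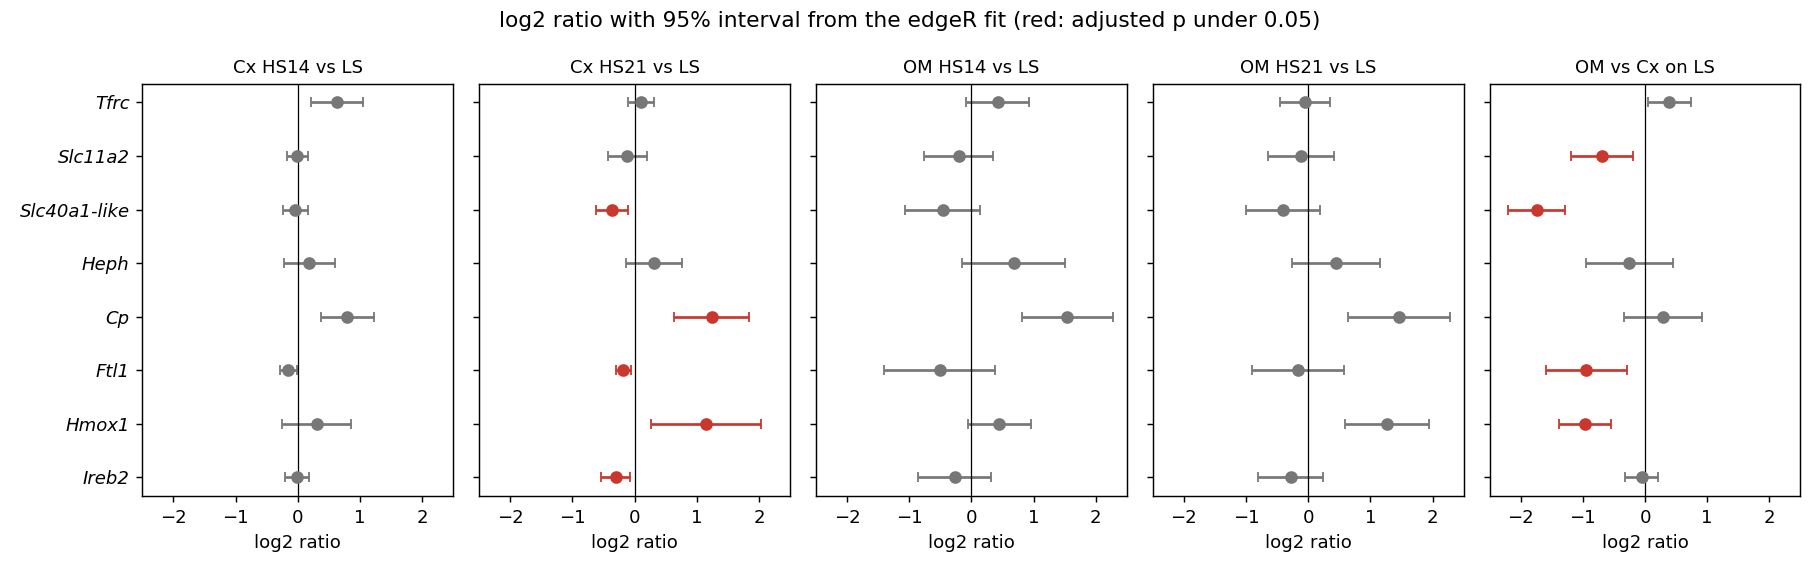
Log2 ratio of each member and of LOC100911874 (Slc40a1-like) in 5 comparisons, with a 95% interval derived from the F statistic of the edgeR test. Red marks an adjusted p under 0.05. Red points stand at Cx HS21 and in the comparison of OM with Cx, and the intervals are wider in the OM than in the Cx for most members.

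Transferrin receptor did not pass the test in any diet comparison. Tfrc stood at 75.7, 67.5, 76.9, 62.8 and 67.5 CPM in Cx LS. In Cx HS14 it stood at 79.4, 83.4, 133.7, 86.7 and 162.2 CPM, and in Cx HS21 at 70.3, 94.8, 72.4, 64.9 and 78.2 CPM. Every HS14 library was above every LS library, most clearly replicates 8 and 10, whereas HS21 and LS overlapped. The log2 ratio at HS14 was 0.63 (SE 0.19, 95% interval 0.21 to 1.04) with an adjusted p of 0.108, so that the gene was not called, and the exact two-sided permutation p was 0.00794, the smallest that 5 against 5 allows. The groups of 5.17% of all genes tested did not overlap in this comparison. DESeq2 called Tfrc raised (adjusted p = 0.0205), and without replicate 10 the edgeR log2 ratio was 0.43. From HS14 to HS21 the log2 ratio was -0.52 (SE 0.20, adjusted p = 0.0978), past the threshold with DESeq2 (0.0496) and in a fit of all 15 Cx libraries (0.0461). In the OM, mean Tfrc was 92.2 ± 21.0 CPM on LS, 124.5 ± 38.0 at HS14 and 90.5 ± 14.1 at HS21 (SD, n = 5), and the 3 groups overlapped.

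Slc11a2, the ferrous iron transporter, showed no difference with diet in either tissue that passed the test. Its mean level was 294.0 ± 19.7 CPM in Cx LS, 296.3 ± 31.7 in Cx HS14 and 274.0 ± 67.1 in Cx HS21 (SD, n = 5). The spread widened at HS21, where single libraries ran from 192.5 CPM in replicate 15 to 370.5 CPM in replicate 13. The 95% interval of the log2 ratio to LS was -0.17 to 0.16 at HS14 and -0.43 to 0.19 at HS21. In the OM the means were 181.8 ± 69.6, 159.1 ± 32.3 and 170.5 ± 31.4 CPM on LS, HS14 and HS21, with intervals against LS of -0.76 to 0.35 and -0.65 to 0.41.

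No gene of the table bears the symbol Slc40a1. Both rows named LOC100911874 are described as similar to solute carrier family 40 member 1, one (ENSRNOG00000003872) at chr9:52894365-52912293 and the other (ENSRNOG00000049995) at chr9:52820683-52830457 of Rnor_6.0. Whether either stands for ferroportin was not settled here, so they were kept outside the counts of members. The second row was at 0 in 23 of the 30 libraries and never above 5 counts. The first stood at 22.4, 22.6, 22.3, 21.7 and 29.5 CPM in Cx LS and at 18.3, 22.1, 20.8, 16.4 and 15.2 CPM in Cx HS21. Replicate 12 of HS21 was the one library within the LS range. The log2 ratio was -0.37 (SE 0.12, adjusted p = 0.0296), lost with total-count scaling (adjusted p = 0.119) and without any one of 4 libraries (Cx LS replicate 5 and Cx HS21 replicates 11, 14 and 15). At Cx HS14 the first row differed from LS by -0.04 (95% interval -0.23 to 0.16). From HS14 to HS21 its log2 ratio was -0.33 (adjusted p = 0.0531), past the threshold with DESeq2 (0.0247), with all 15 Cx libraries in 1 fit (0.0366) and without Cx HS14 replicate 10 (0.04), Cx HS21 replicate 12 (0.0332) or Cx HS21 replicate 13 (0.0355).

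Among the ferroxidases, Cp was called in the Cx at HS21 and Heph was not. They were not tested against each other. Heph, the membrane-bound form, averaged 17.6 ± 3.0 CPM in Cx LS, 20.2 ± 6.59 in Cx HS14 and 22.2 ± 7.38 in Cx HS21 (SD, n = 5), and did not pass the test at either time (log2 ratio 0.18 and 0.32, adjusted p = 0.685 and 0.243). In the OM it averaged 14.9 ± 6.69 CPM on LS, 23.8 ± 7.84 at HS14 and 20.6 ± 3.0 at HS21, again without a call. OM LS replicate 2 held the lowest value, 4.87 CPM.

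Ceruloplasmin, the copper-carrying ferroxidase and an acute-phase protein, was the one member whose call in the Cx at HS21 held in every alternative run. Cp stood at 64.6, 42.4, 55.4, 49.8 and 50.55 CPM in Cx LS. It stood at 120.0, 76.4, 102.0, 113.0 and 51.7 CPM in Cx HS14, and at 119.5, 82.1, 62.0, 156.1 and 206.8 CPM in Cx HS21. In each HS group 4 of 5 libraries were above all LS libraries, and the fifth (replicate 10 at HS14, replicate 13 at HS21) lay among them. The log2 ratio was 0.80 at HS14 (SE 0.19, adjusted p = 0.0561) and 1.24 at HS21 (SE 0.28, 2.36-fold, adjusted p = 0.0042). The call at HS21 held without any single library, with adjusted p between 0.000639 and 0.0131, and at HS14 the gene was called without replicate 10 (log2 ratio 0.95, adjusted p = 0.0053).

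In the OM, Cp stood at 69.0, 28.5, 65.2, 50.4 and 111.7 CPM on LS. At HS14 it stood at 143.1, 142.9, 276.4, 225.1 and 157.4 CPM, and at HS21 at 137.0, 145.1, 106.3, 215.1 and 297.8 CPM. All HS14 libraries were above all LS libraries, a separation found in 1.49% of all genes tested, and at HS21 replicate 13 alone fell within the LS range. The log2 ratios, 1.54 (SE 0.33, adjusted p = 0.387) and 1.45 (SE 0.37, adjusted p = 0.112), were larger than those in the Cx but not called by edgeR, while DESeq2 gave adjusted p of 0.0033 and 0.00573. Without both OM LS replicate 2, which had the lowest Cp of its group, and OM HS14 replicate 10, the log2 ratio at HS14 was 1.39 (adjusted p = 0.176). In some groups, and not in others, immune cell marker sums kept the order of Cp. In Cx HS21 the libraries stood in the same order, replicates 15, 14, 11, 12 and 13, for Cp, for the summed 12 macrophage markers (3408, 1972, 1322, 777.3 and 508.8 CPM) and for 10 T cell markers (194.1, 151, 105.4, 81.2 and 54.7 CPM). T cell sums were 25.7 to 39.4 CPM in Cx LS, and 7 of the 7 tested T cell markers were raised at Cx HS21 (median log2 ratio 2.66). In OM LS the order of Cp was also that of the macrophage sums. In OM HS14 it was not, since replicate 10 had the lowest macrophage sum (389.9 CPM) and the third highest Cp. In Cx LS, Cx HS14 and OM HS21 the full order was not kept either. The library lowest in Cp was also lowest in the macrophage sum in each of these groups. The part of these cells in the Cp difference was not tested. The tissue by diet interaction of Cp at HS21 was 0.21 (95% interval -0.80 to 1.22, adjusted p = 0.873).

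Ferritin light chain fell slightly in the Cx. Ftl1 stood at 1417, 1379, 1433, 1398 and 1495 CPM in Cx LS and at 1144, 1254, 1356, 1241 and 1356 CPM in Cx HS21, so that every HS21 library was below every LS library. The groups of 26.4% of all genes tested did not overlap in this comparison. The log2 ratio was -0.18 (SE 0.06, a ratio of 0.883, adjusted p = 0.0287). At HS14, 4 libraries stood between 1238 and 1278 CPM and replicate 10 at 1470 CPM, and the log2 ratio was -0.15 (adjusted p = 0.251), or -0.21 (adjusted p = 0.0184) without replicate 10. The Ftl1 call at HS21 was lost with total-count scaling, under which the log2 ratio was -0.05 (adjusted p = 0.503) and the median of all genes moved up by 0.13, and narrowly with no low-count filter (0.0504), with all 15 Cx libraries in 1 fit (0.0528) and with limma (0.0865). It was also lost without any one of 5 libraries, Cx LS replicates 3 and 5 and Cx HS21 replicates 11, 12 and 14 (highest adjusted p 0.0832). Summed proximal tubule markers were 13620 to 14900 CPM in Cx LS, 10030 to 13490 in Cx HS14 and 8480 to 11380 in Cx HS21, and 8 of 8 of these markers were lowered at HS21. Within the Cx groups the order of Ftl1 was not that of the markers: Cx HS14 replicate 10 had the highest Ftl1 and the lowest tubule sum of its group. The markers' part in the Ftl1 difference was not tested.

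In the OM, Ftl1 varied widely and, within each diet group, mostly in the order of the proximal tubule markers. On LS it stood at 539.1, 1344, 732.3, 722.0 and 361.0 CPM, with proximal tubule sums of 841.7, 7187, 2206, 1835 and 220.1 CPM in the same libraries. The high library, replicate 2, was highest in both and replicate 5 lowest in both. At HS14, Ftl1 ran from 200.5 to 822.1 CPM and at HS21 from 397.5 to 863.2 CPM, with intervals of the log2 ratio against LS of -1.40 to 0.38 and -0.90 to 0.58. In the LS and HS21 groups all 5 libraries kept that order, and at HS14 the exception was the pair of replicates 8 and 10, the latter with the lowest Ftl1 (200.5 CPM) beside a tubule sum of 754.2 CPM and the fewest counts.

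**Figure D3:**
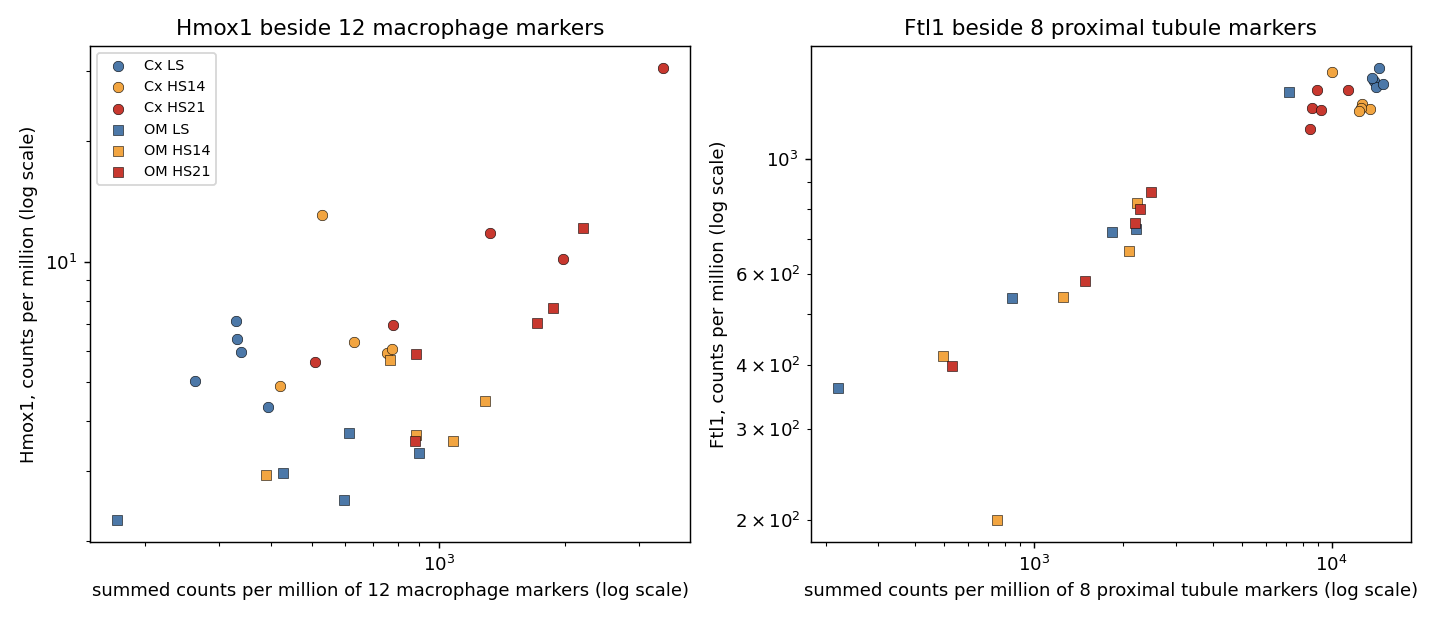
Left, Hmox1 against the summed level of 12 macrophage markers. Right, Ftl1 against the summed level of 8 proximal tubule markers. Each point is 1 of 30 libraries, both axes are in CPM on log scales, and colour and shape give diet and tissue. Cx HS21 replicate 15 is highest in both measures on the left (30.4 and 3408 CPM), and OM LS replicate 2 lies near the Cx libraries on the right (1344 and 7187 CPM).

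Fth1, the ferritin heavy chain (chr1:226030938-226033228), was listed at 0 in all 30 libraries, where counting error alone allows up to 3 counts in a library. A gene that nearly every cell uses cannot be read as silent from this. Ferritin genes have many near-identical copies, and the table holds 11 ferritin rows besides Fth1 and Ftl1 (mitochondrial ferritin left aside). Of these 11 rows, 7 were taken as light chain copies. Reads that fit several copies could be dropped by the counting, which the authors ran at default settings. Whether this gave the 0 of Fth1 was not tested. No level of Fth1 is therefore given. The 11 rows held 10455 counts over all libraries, and 97.7% of the ferritin reads that were counted fell on Ftl1. This share leaves out Fth1 and any dropped reads, so it does not give the makeup of ferritin mRNA. LOC100362384 and LOC100360087, the fullest of the copies, averaged 13.6 and 11.6 CPM in Cx LS against 11.4 and 11.3 CPM in Cx HS21. With 7 light chain copies added to Ftl1 (an alternative chosen after the data were seen), the log2 ratio at Cx HS21 was again -0.18 (adjusted p = 0.0278).

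Heme oxygenase 1 rose in the Cx at HS21, with one library far above the rest. Hmox1 stood at 7.10, 5.04, 4.34, 6.42 and 5.97 CPM in Cx LS, and at 6.30, 13.1, 5.91, 6.04 and 4.90 CPM in Cx HS14. In Cx HS21 it stood at 11.8, 6.94, 5.63, 10.2 and 30.4 CPM. Replicates 11, 14 and 15 were above all LS libraries, and replicates 12 and 13 were within their range. The log2 ratio was 1.16 (SE 0.40, 2.23-fold, adjusted p = 0.0398), and the exact two-sided permutation p on log2 CPM was 0.0556. Without replicate 15 the log2 ratio was 0.58 (adjusted p = 0.0717) and the HS21 mean fell from 13 ± 10.1 to 8.64 ± 2.85 CPM (SD, n = 4). The Hmox1 call was also lost without Cx HS21 replicate 11 or without any one of the 5 Cx LS libraries (highest adjusted p 0.0862), and with limma on FPKM (0.114). At HS14 the log2 ratio was 0.30 (SE 0.26, adjusted p = 0.604).

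In the OM, Hmox1 stood at 3.74, 2.27, 2.54, 2.96 and 3.32 CPM on LS and at 7.68, 5.90, 3.57, 7.05 and 12.1 CPM at HS21. All but replicate 13 of HS21 were above all LS libraries. The log2 ratio was 1.27 (SE 0.30, adjusted p = 0.0906), with an exact permutation p of 0.0159 (two-sided), and DESeq2 (adjusted p = 0.00437) and the fit of all 15 OM libraries (0.0401) passed the threshold, as did edgeR without replicate 13 (log2 ratio 1.44, adjusted p = 0.0293). The interaction with tissue was 0.10 (95% interval -1.0 to 1.21, adjusted p = 0.945). The summed level of 12 macrophage markers was 263.9 to 392.1 CPM in Cx LS, 420.5 to 775.1 in Cx HS14 and 508.8 to 3408 in Cx HS21, with 11 of the 11 tested raised at HS21. Cx HS21 replicate 15 had the highest sum, and replicates 13 and 12, lowest in Hmox1, had the lowest sums (508.8 and 777.3 CPM). In the OM the sums were 172.4 to 898.1 CPM on LS and 876.5 to 2210 CPM at HS21, where replicates 13 and 15 were again lowest and highest in both measures. Other groups did not keep this order throughout. Replicate 7 had the highest Hmox1 of its group in Cx HS14 (13.1 CPM) and in OM HS14 (5.69 CPM). Its sums were the second lowest of these groups (528.5 and 766.3 CPM). In OM LS, replicate 1 was highest in Hmox1 (3.74 CPM) and replicate 5 in the sum (898.1 CPM), while replicate 2 was lowest in both. Hmox1 averaged 4.07 ± 1.06 CPM in OM HS14 (log2 ratio 0.45, adjusted p = 0.967). The part of these cells in the Hmox1 difference was not tested. The 7 erythroid markers summed to 8.84 to 11.5 CPM in Cx LS and 10.8 to 22.7 CPM in Cx HS21, and none of the 4 tested was called.

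Ireb2 fell in the Cx at HS21. It stood at 59.4, 52.5, 54.7, 56.9 and 59.5 CPM in Cx LS, and at 51.6, 57.4, 42.8, 43.6 and 36.1 CPM in Cx HS21. All but replicate 12 were below all LS libraries. The log2 ratio was -0.30 (SE 0.11, a ratio of 0.81, adjusted p = 0.0387), against -0.01 (95% interval -0.20 to 0.19) at HS14. The call was lost with total-count scaling (log2 ratio -0.175, adjusted p = 0.193) and without any one of 7 libraries, Cx LS replicates 1, 3, 4 and 5 and Cx HS21 replicates 13, 14 and 15 (highest adjusted p 0.0878). In the OM its means were 54.6 ± 9.63, 45.4 ± 16.4 and 45.6 ± 15 CPM on LS, HS14 and HS21 (SD, n = 5), with no call.

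On LS, 3 members were lower in the OM than in the Cx and none was higher. That is 3 of 7 lowered, where 19.5% of 14295 genes were lowered, and 0 of 7 raised by edgeR, where 21.3% were raised. DESeq2 and limma also raised none, while with total-count scaling, which moved the median of all genes up by 0.24, Tfrc was called higher in the OM (0.61, adjusted p = 0.0021, against 0.39 and 0.0699), as it was by edgeR without OM LS replicate 5 (0.51, adjusted p = 0.00631). In all, 4 members had an unadjusted p under 0.05. Hmox1 was 5.77 ± 1.09 CPM in the Cx and 2.97 ± 0.593 in the OM (SD, n = 5), a log2 ratio of -0.96 (adjusted p = 0.00215), and the groups did not overlap (29.1% of all genes did not). Ftl1 (-0.94, adjusted p = 0.0264) did not overlap either. Slc11a2 (-0.69, adjusted p = 0.0299) overlapped in OM LS replicate 2, whose 295.9 CPM was within the Cx range. Without that library the log2 ratios were -1.30 for Ftl1 (adjusted p = 0.000331) and -0.96 for Slc11a2 (adjusted p = 0.000231). Both calls were lost without OM LS replicate 1 (adjusted p 0.0639 and 0.0715) or replicate 3 (0.0548 and 0.0701), that of Ftl1 without OM LS replicate 4 (0.0552), and that of Slc11a2 without Cx LS replicate 4 (0.0503). LOC100911874 was 23.7 ± 3.27 CPM in the Cx and 7.13 ± 2.46 in the OM, a log2 ratio of -1.74 (adjusted p = 0.000116), and the call held without any single library. The proximal tubule sum was 13620 to 14900 CPM in Cx LS and 220.1 to 7187 CPM in OM LS, and its part in these differences was not tested.

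No member's response at HS21 differed between the tissues by edgeR, where 0.448% and 0.217% of 15194 genes had a positive and a negative interaction. None had an unadjusted p under 0.05, and DESeq2 and limma called none. The 95% intervals ran from -0.60 to 0.28 for Tfrc, the narrowest, to -1.0 to 1.21 for Hmox1, the widest, so the data leave room for sizeable differences between the tissues.

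Other genes of iron and heme handling were grouped in 7 lists, of which 84 of 87 symbols were in the table. In the Cx at HS21, 14 of 79 tested were raised and 25 lowered, with a median log2 ratio of -0.09 (0.00 over all genes). That is 17.7% raised, no more than the 18.9% of all genes, and 31.6% lowered, beside 20.5%. At HS14, 1 was raised (Lcn2) and 2 lowered (Aco1 and Abcg2, the latter by 0.31 on the log2 scale). These shares were 1.27% and 2.53%, beside 1.14% and 1.18% of all genes. From HS14 to HS21, 4 were raised (5.06%, beside 6.5% of all genes) and 10 lowered (12.7%, beside 9.69%). In the OM none was called by edgeR at either time (7 and 6 at an unadjusted p under 0.05), DESeq2 called 2 and 1 raised, and limma called none.

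**Figure D4:**
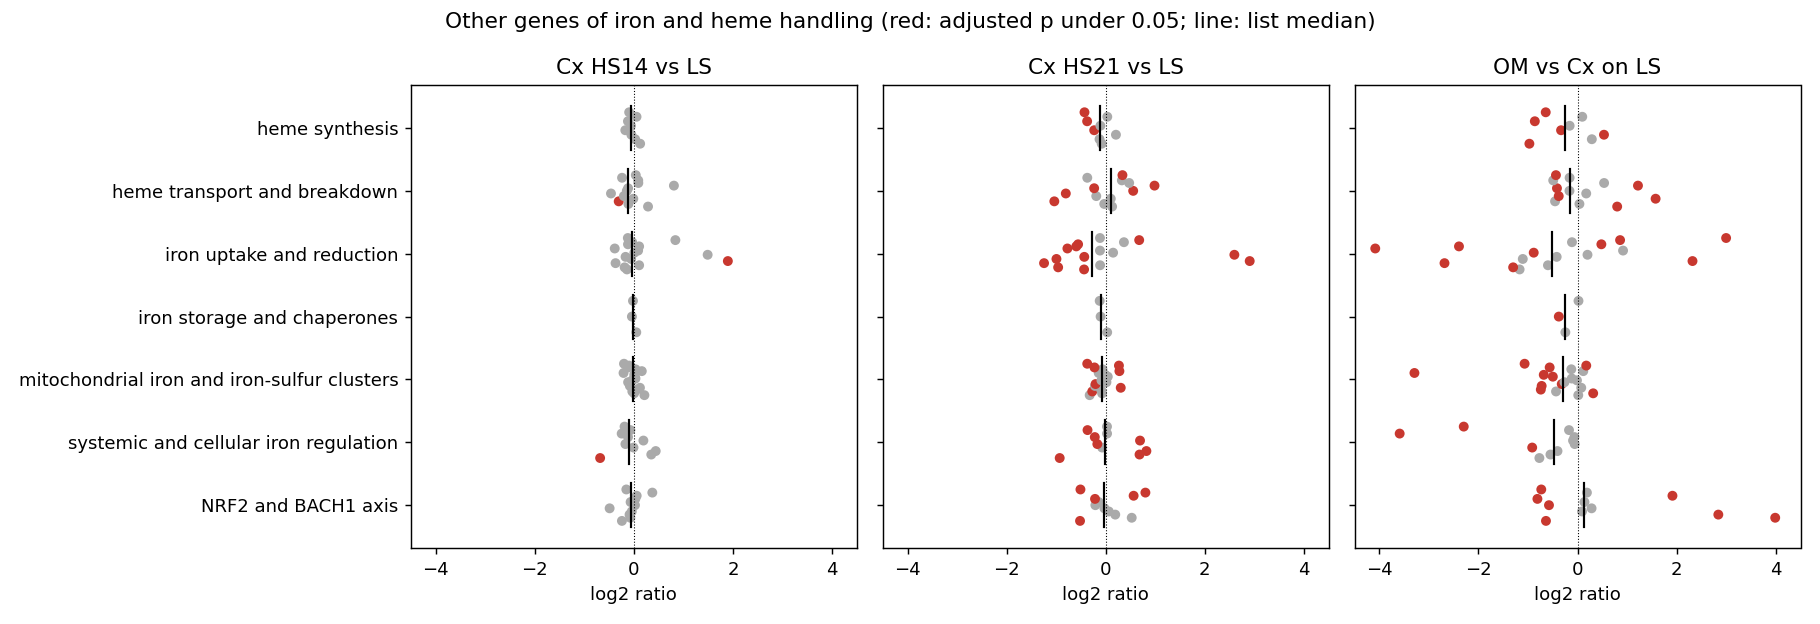
Log2 ratio of each tested gene of 7 lists in Cx HS14 against LS, Cx HS21 against LS, and OM against Cx on LS. Red marks an adjusted p under 0.05, grey no call, and the black line the list median. Lcn2 stands furthest to the right in both diet comparisons, at 1.90 and 2.91.

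In the list of iron uptake and reduction, 3 of 16 tested genes were raised and 8 lowered at Cx HS21 (median -0.27). The shares were 18.8% and 50%, beside 18.9% and 20.5% of all genes. Lcn2, the iron-scavenging lipocalin NGAL that injured tubules and leukocytes make, went from 2.28 ± 0.934 to 17.3 ± 11.5 CPM (SD, n = 5), a log2 ratio of 2.91 (adjusted p = 0.000814), and Scara5, a ferritin receptor, from 0.405 ± 0.349 to 2.48 ± 1.27 CPM (2.60, adjusted p = 0.00426). The Scara5 ratio is set against a very low level in Cx LS. Dab2, an adaptor of megalin, fell from 1130 ± 74.6 to 481.8 ± 51.8 CPM (-1.24, adjusted p = 3.28e-06). The others lowered included the receptors Lrp2 (megalin, -0.99) and Cubn (cubilin, -0.96), the cubilin partner Amn (-0.44) and the metal transporter Slc39a8 (-0.77). Steap1 (-0.59), the ferrireductase Steap2 (-0.56) and the lysosomal channel Mcoln1 (-0.43) completed the genes lowered. The third gene raised was the ferrireductase Steap4 (0.68). At HS14, Lcn2 was already raised (8.59 ± 3.06 CPM, log2 ratio 1.90, adjusted p = 0.0152). These moved beside the 11 macrophage and 8 proximal tubule markers called in the same comparison, whose part was not tested.

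The lists of heme handling held called genes in the Cx at HS21, where 18.9% of all genes were raised and 20.5% lowered. Of 8 genes of heme synthesis none rose and 3 fell (37.5%, median -0.12), namely Uros (-0.43), Ppox (-0.37) and the last enzyme Fech (-0.23). Of 13 genes of heme transport and breakdown, 3 rose and 3 fell (23.1% each, median 0.10). Abcg2, an exporter of porphyrins and urate, fell from 173.3 ± 5.14 to 85.3 ± 7.51 CPM (-1.04, adjusted p = 3.28e-06), Flvcr2 fell (-0.81), and haptoglobin (Hp), which binds free hemoglobin, rose from 0.95 ± 0.288 to 1.92 ± 0.406 CPM (0.98, adjusted p = 0.00851). The level of Hp was low in both groups. The others raised were Hebp1 (0.55) and the heme transporter Slc48a1 (0.34). Hmox2, the constitutive heme oxygenase, fell by 0.23 on the log2 scale (adjusted p = 0.00327) where Hmox1 rose.

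Aco1, whose protein is iron regulatory protein 1 and the partner of Ireb2, fell at both times. It was 605.9 ± 53.0 CPM in Cx LS, 382.3 ± 30.9 at HS14 (-0.68, adjusted p = 0.00382) and 321.5 ± 26.9 at HS21 (-0.93, adjusted p = 1.20e-05). At HS21, 3 of 10 genes of iron regulation rose (30%) and 4 fell (40%, median -0.02), the former Bmp6 (0.82, adjusted p = 0.000304), known as a signal for hepcidin in the liver, Hfe (0.69) and Bmp2 (0.68), and the latter Aco1, Neo1 (-0.37), Hif1a (-0.22) and Fbxl5 (-0.17), which marks Ireb2 protein for degradation. Of 11 genes of the NRF2 and BACH1 axis, which governs Hmox1 transcription, 2 rose (18.2%) and 3 fell (27.3%, median -0.03), close to the 18.9% and 20.5% of all genes. Srxn1 rose (0.80, adjusted p = 0.00216), Nqo1 rose (0.56) and Bach1, the repressor of Hmox1, fell (-0.52, adjusted p = 0.000554), as did Txnrd1 (-0.51) and Nfe2l2 itself (-0.22). Of 18 genes of mitochondrial iron and iron-sulfur clusters 3 rose (16.7%, Fdx2, Nfu1 and Slc25a28) and 4 fell (22.2%, Slc25a37, Ciao1, Nubp2 and Glrx5), again close to all genes, the largest change being -0.37 in the iron importer Slc25a37. None of 3 genes of storage and chaperones was called by edgeR, and 1 had an unadjusted p under 0.05.

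On LS, 13 of 79 of these genes were higher and 28 lower in the OM than in the Cx (median -0.25, 0.03 over all genes). That is 16.5% higher, below the 21.3% of all genes, and 35.4% lower, beside 19.5%. The glutathione synthesis genes Gclc (log2 ratio 3.99, adjusted p = 0.000407) and Gclm (2.84), the second transferrin receptor Tfr2 (3.0) and biliverdin reductase Blvra (1.58) were higher in the OM. The Tfr2 ratio is set against a very low level in Cx LS, 0.416 ± 0.153 CPM (SD). Steap1 (-4.08), hemojuvelin Hjv (-3.59), Dab2 (-2.68) and Tmprss6 (-2.30) were lower. Nfs1, a cysteine desulfurase, was lower by 3.29 on the log2 scale (adjusted p = 0.0375), but its level in Cx LS was 26.1 ± 49.1 CPM, an SD larger than the mean.

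For each member called against LS, the 2 protein-coding genes with the most similar log2 CPM over the 15 Cx libraries were found among 13679. Cp ran closest to C1s (Pearson r = 0.97) and Serping1 (0.97), a protease of the complement system and its inhibitor, and in the 15 OM libraries the r were 0.96 and 0.15. Hmox1 ran closest to Pabpc1 (0.92) and Mycl (0.91), with 0.11 and 0.76 in the OM. Ireb2 ran closest to Smc2 (0.95) and Erbb2ip (0.95), with 0.79 for each in the OM. Ftl1 ran closest to Ltbp1 (0.86) and Kcp (0.85), with -0.55 and 0.54 in the OM. These genes were picked as the highest of all, the libraries are shared, and diet and cell makeup differ between them, so the values are descriptions.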

How the data were processed

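The 30 libraries were grouped by their labels, 5 per group. They were made from poly(A) RNA without strand information, so overlapping and antisense genes cannot be told apart. Reads were aligned by the authors with HISAT2 2.0.5 (Rnor_6.0) and counted per gene with featureCounts 1.5.0-p3. The counts were used as deposited. The FPKM that the authors computed served 1 alternative only. Gene lengths in bases were also deposited. Columns of the authors' comparisons (group means, log2 fold changes, p-values and adjusted p-values) were left out.

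Each comparison was fitted with edgeR 4.0.16 in R 4.3.3 on the libraries compared (filterByExpr, TMM, glmQLFit, glmQLFTest, no covariates, Benjamini-Hochberg adjustment), the interaction on 20 libraries. The SE of a log2 ratio is not an output of this test. It was taken as the absolute log2 ratio divided by the square root of the F statistic. The 95% intervals use this SE and a t distribution, and are approximate. Levels are CPM with TMM over 30 libraries, and log2 CPM has a prior count of 2. Single levels were compared by exact two-sided permutation (252 regroupings). Alternatives were DESeq2 1.42.0, total-count scaling, no low-count filter, limma 3.58.1 on log2(FPKM + 1) at a mean of at least 0.1, joint fits of 15 libraries, a replicate block and leaving out each library. The scripts were tested on simulated data. Per the study's methods both tissues of a group were cut from the same kidneys, 5 per group, but which library numbers share a kidney is not given in the sources used here, so tissues were compared without a block.

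The members, the 7 lists and the markers were chosen with earlier results of these data known. All members are named. Of each list and comparison, up to 3 called genes were named by size of change, and Hmox2, Hebp1, Slc48a1, Lrp2, Cubn, Amn, Slc39a8, Steap1, Steap2, Steap4, Mcoln1, Bmp2, Neo1, Hif1a, Fbxl5, Txnrd1, Nfe2l2, Slc25a28, Ciao1, Nubp2 and Glrx5 were added at Cx HS21 after their values were seen. Slc40a1, Flvcr1 and Pcbp1 were among the symbols not matched by name, and 3 genes were matched by an older symbol.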

Additional observations from a re-analysis of the deposited data

Results flagged for a closer look

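Of 48 groups of 5 libraries (7 members and LOC100911874 in 6 groups each, with chance flagging about 1 in 20 groups), 6 held a library far from the others, judged by its gap on log2 CPM as a share of the group's range (limit 0.71). Hmox1 in Cx HS14 replicate 7 was 13.1 CPM, next to 6.30 CPM (share 0.746). Slc11a2 in Cx LS replicate 3 was 260.2 CPM, below 293.7 CPM (0.721). Heph in Cx HS14 replicate 6 was 31.9 CPM, next to 18.3 CPM (0.805). Ftl1 in Cx HS14 replicate 10 was 1470 CPM, next to 1278 CPM (0.816). LOC100911874 was 29.5 CPM in Cx LS replicate 5, next to 22.6 CPM (0.865), and 11.5 CPM in OM LS replicate 2, next to 6.50 CPM (0.841). The last library also had the highest proximal tubule sum of the OM.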

How the results depend on the processing

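The number of members called moved as follows. At Cx HS14, 2 were raised with DESeq2 and 1 with no low-count filter. At Cx HS21, 0 were lowered with total-count scaling, 1 with no filter, with limma and with all 15 Cx libraries, and limma raised 1. From HS14 to HS21, DESeq2 and the joint fit lowered 1. In the OM, DESeq2 raised 1 at HS14 and 2 at HS21, where the joint fit raised 1. On LS, total-count scaling raised 1 in the OM. Leaving out each library gave 0 to 1 raised and 0 to 1 lowered at Cx HS14, 1 to 2 raised and 0 to 2 lowered at Cx HS21, 0 to 1 raised at OM HS21, and 0 to 1 raised and 1 to 3 lowered for OM against Cx. The cause of these changes was not tested. Cp at Cx HS21 and Hmox1 between the tissues kept their calls under every alternative run. Limits are the 5 libraries a group, the wide spread in the OM and the low counts of Hmox1 (17 to 447).

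Differences that were not called changed sign as follows. With total-count scaling they were 0.0068 (Slc11a2) and 0.0041 (Ireb2) at Cx HS14, 0.0115 (Slc11a2) at Cx HS21, 0.0047 (Slc11a2) and 0.085 (Ftl1) from HS14 to HS21, 0.0328 (Heph) and 0.1728 (Ireb2) between tissues, and -0.0187 (Hmox1), -0.0147 (Heph), -0.0428 (Ftl1) and -0.0649 (Ireb2) in the interaction. With no filter Slc11a2 at Cx HS14 was 0.002. The interaction of Slc11a2 was 0.0061 with DESeq2 and 0.0902 with limma, and that of LOC100911874 0.0644 with limma.

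Leaving out libraries moved uncalled log2 ratios across 0. At Cx HS14 the ranges were -0.0132 to 0.4084 (Hmox1), -0.0623 to 0.0317 (Slc11a2), -0.0395 to 0.2725 (Heph), -0.0558 to 0.0693 (Ireb2) and -0.0713 to 0.0532 (LOC100911874). From HS14 to HS21 they were -0.0157 to 0.3514 (Heph) and -0.0582 to 0.0175 (Ftl1). At OM HS14 they were -0.3259 to 0.0619 (Slc11a2) and -0.7054 to 0.0332 (Ftl1), at OM HS21 -0.1674 to 0.0465 (Tfrc), -0.2413 to 0.1251 (Slc11a2) and -0.3346 to 0.1725 (Ftl1), and between tissues -0.1286 to 0.0458 (Ireb2). In the interaction they were -0.1559 to 0.6948 (Hmox1), -0.1218 to 0.2675 (Slc11a2), -0.0452 to 0.49 (Cp), -0.0728 to 0.3035 (Heph), -0.1513 to 0.382 (Ftl1), -0.1635 to 0.1285 (Ireb2) and -0.1589 to 0.2214 (LOC100911874).

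Genes called overall moved by over 1.5 times at Cx HS14 (162 raised and 168 lowered, with DESeq2 500 and 414, with limma 87 and 96, in the joint fit 83 raised), at Cx HS21 (2702 and 2936, with total counts 4401 and 1653), from HS14 to HS21 (935 and 1395, with total counts 2084 and 644, with DESeq2 1465 and in the joint fit 1500 raised), at OM HS14 (1 and 0, with DESeq2 90 and 20, in the joint fit 2 raised, with total counts or no filter 0), at OM HS21 (93 and 19, with DESeq2 555 and 166, with total counts 35 and 9, in the joint fit 179 raised) and between tissues (3051 and 2794, with total counts 5546 and 1842). In the interaction (68 and 33), DESeq2 called 337 and 201 and limma 119 positive, with 54 negative by total counts and 10 with no filter. Leaving out each library gave 42 to 274 raised and 43 to 232 lowered at Cx HS14, 337 to 1476 and 692 to 2048 from HS14 to HS21, 0 to 4 and 0 to 2 at OM HS14, 9 to 159 and 0 to 31 at OM HS21, and 34 to 729 and 4 to 546 in the interaction, so the shares of all genes called there rest on single libraries. Of the 7 lists, DESeq2 raised 3 at Cx HS14, where no filter, limma and the joint fit lowered 1, and called 3 positive and 1 negative in the interaction. With total counts 16 rather than 25 were lowered at Cx HS21, 5 rather than 10 from HS14 to HS21, and 23 rather than 13 were higher in the OM.

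Both tissues of a group come from the same 5 kidneys, but neither labels nor methods say that a shared replicate number marks a kidney. Deviations from the group means correlated between -0.16 and 0.62 over the 15 pairs, 11 of them best with their own number and 12 over 0.1, a hint from the data that most numbers mark a kidney. With a replicate block the log2 ratios between tissues were -0.97 (Hmox1, adjusted p = 0.00403), -0.77 (Slc11a2, 0.029) and -1.09 (Ftl1, 0.0297), the same 3 members were called, and 2442 genes were higher and 2569 lower in the OM. In the interaction with the block, which called no member, Hmox1 was 0.26, Cp 0.36, Heph 0.29, Ftl1 0.12, Slc11a2 0.0859 and Ireb2 -0.0096.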
